A study of Homo sapiens with 4 samples.

Results

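The keratin genes of chromosomes 12 and 17 were examined for RAD21 peaks in HCT116 cells. They were taken as all protein-coding genes of the GENCODE version 44 annotation on these chromosomes whose name is KRT followed by digits, with or without a letter, which left out the keratin-associated protein genes. This gave 55 genes of 20033 protein-coding genes, 27 on chromosome 12 and 28 on chromosome 17. A peak was assigned to a gene when its summit lay within the gene or 5 kb of it, and 57 of the 56853 peaks of the list were assigned to at least 1 keratin. The rule used names and positions only, and no measured value chose the genes.

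The peaks come from RAD21 ChIP-seq, which sequences the fragments of crosslinked chromatin that an antibody to RAD21, a subunit of the cohesin ring, pulls down. The series held 4 libraries of HCT116, a human colon carcinoma line, with 1 library for each condition. Wild-type HCT116 cells without treatment gave the peak list used here. Libraries of HCT116_RAD21_AID cells, a clonal line with the mAID degron in the RAD21 gene and the OsTIR1 ubiquitin ligase, were not analysed here, neither the untreated ChIP nor the ChIP and Input after 6 h with the auxins IAA and α-NAA at 500 µM each. Without replicates, no comparison below is between conditions, intervals cover counting error only, and a peak list can check neither the cell type nor the expression of a keratin.

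Keratins form the intermediate filaments of epithelial cells, as pairs of a type I and a type II protein. The type II genes lie in 1 cluster on chromosome 12 and most type I genes in 1 cluster on chromosome 17, while KRT18, a type I gene, sits beside its partner KRT8 at the end of the type II cluster. KRT8, KRT18, KRT19 and KRT20 are keratins of simple epithelia such as the intestinal lining, whereas most others belong to stratified epithelia, hair and nail. Cohesin extrudes chromatin loops and is often halted at bound CTCF, a protein whose binding sequence has a direction.

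Sequences that carry the findings were read from the GRCh38 reference. The first set holds core matches, that is matches to the CTCF core consensus, at peaks beside the outer ends of the clusters, without the KRT80 end. They were chosen because, at the nearest peaks with a match, their direction differs between the ends. Each is printed along the strand of its core with the core in capitals. They lie at chr12:52980973-52981024 (minus strand) after KRT18, chr17:40620075-40620126 (plus strand) before KRT222, and chr17:41648045-41648096 and chr17:41662798-41662849 (both minus strand) after KRT17.
After KRT18: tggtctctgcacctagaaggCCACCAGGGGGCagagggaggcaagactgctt
Before KRT222: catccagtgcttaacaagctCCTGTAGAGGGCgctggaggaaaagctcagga
After KRT17, nearer: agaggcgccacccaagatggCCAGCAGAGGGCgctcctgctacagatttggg
After KRT17, farther: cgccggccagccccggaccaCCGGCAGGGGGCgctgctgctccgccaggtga

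The next sequence is that of the highest peak in a keratin window, between KRT36 and KRT13 (chr17:41496835-41496886, plus strand), again with the core in capitals.
KRT36 and KRT13: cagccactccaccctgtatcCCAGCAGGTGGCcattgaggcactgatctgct

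Of the 55 keratins, 29 had at least 1 peak and 26 had none, so that 52.7% carried a peak (95% Wilson interval 39.8 to 65.3%). Among all protein-coding genes 75.3% carried one. Keratin genes are short, with a median length of 7098 bp against 27471 bp, and a longer gene has a wider window. Of protein-coding genes of at most 25 kb, a limit set after the data were seen, 63.3% carried a peak, beside 27 of 53 keratins of that length (50.9%, interval 37.9 to 63.9%). That interval includes the share of the short genes. Per megabase of window, keratins of at most 25 kb had 53.15 peaks (95% Poisson interval 39.2 to 70.5) and all short genes 51.8. When only summits inside the gene body were counted, 19 keratins and 34 peaks remained.

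The peaks at keratins were of moderate height. Height is given as fold enrichment, the ChIP fragments at the summit over the local background, with 1 added to both. The median over the 57 peaks was 4.64, and the quartiles were 3.04 and 7.83, beside a median of 5.58 over all peaks. A fold enrichment of at least 10 was reached by 9 of the 57 peaks (15.8%, Wilson interval 8.54 to 27.4%), beside 27.2% of all peaks. The summits at keratins held a median of 37 fragments, and those of all peaks a median of 48. A match to the CTCF core, a consensus of 12 letters searched on both strands within 50 bp of the summit with at most 1 mismatch, lay at 20 of the 57 peaks (35.1%, interval 24.0 to 48.1%), beside 38.5% of all peaks and 0.762% of windows 5 kb away from summits. The 20 peaks with a match had a median fold enrichment of 7.50 and the peaks without one a median of 3.19.

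The cluster on chromosome 12 carried most of the peaks. There, 18 of 27 keratins had a peak and 42 distinct peaks lay in their windows, whereas on chromosome 17 these numbers were 11 of 28 genes and 15 peaks. Of all protein-coding genes, 78.6% on chromosome 12 and 78.9% on chromosome 17 had a peak. Per megabase of window, keratins had 74.8 peaks (95% Poisson interval 53.9 to 101.1) on chromosome 12 and 34.9 (19.5 to 57.6) on chromosome 17. These intervals overlap only between 53.9 and 57.6. All protein-coding genes had 22.6 peaks per megabase of window on chromosome 12 and 41.8 on chromosome 17, the reverse order. The median fold enrichment of peaks at keratins was close on both chromosomes, at 4.78 and 4.49. In all, 15 keratins had 2 or more peaks and 14 had 1. Windows of neighbouring keratins overlap, and 10 of the 57 peaks were assigned to 2 or more keratins.

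The 4 keratins KRT8, KRT18, KRT19 and KRT20 were compared with the other 51. Of these 4 genes, 3 had peaks (75%), 11 in all or 2.75 distinct peaks per gene. Of the other 51 genes, 26 had peaks (51.0%), 48 in all or 0.94 per gene. Among all protein-coding genes 75.3% had a peak, with 1.64 distinct peaks per gene. For those of at most 25 kb these values were 63.3% and 0.89. Per megabase of window the 4 genes had 110 peaks (95% Poisson interval 55.0 to 197) and the other 51 had 53.2 (39.2 to 70.6). These intervals overlap. The peaks at the 4 genes were mostly low, with a median fold enrichment of 3.14 against 4.78 at the others, and 2 peaks were shared by both sets. A CTCF core match was found at 1 of the 11 peaks and at 19 of the 48. The 4 genes are not replicates of one another, and the count rests on KRT8.

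KRT8 encodes a type II keratin of simple epithelia. The annotated gene, on the minus strand, spans 52768 bp because annotated alternative starts lie far upstream, next to KRT18, while its canonical transcript spans 7886 bp. The window of the full gene held 8 peaks and that of the canonical transcript 4. The highest of them lay 139 bp upstream of the canonical start, with a fold enrichment of 25.8 (95% interval 22.7 to 29.3) from 245 fragments, above 94.0% of all peaks. No core match lay at its summit. The other peaks at the canonical transcript were low. One summit downstream of the gene had a fold enrichment of 3.04, and one in an intron had 3.14. Another, in exon 6, had 4.64 (3.20 to 6.52) and was the only one of the 8 with a core match. A further peak of 9.65 (7.58 to 12.1) lay 22.6 kb upstream of the canonical start, within the long form of the gene.

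KRT18, the type I partner of KRT8, had 3 peaks, and all of them also fell into the window of the long KRT8 form. The peak at its start, 92 bp downstream in the first exon, had a fold enrichment of 6.34 (4.70 to 8.39). A second in an exon near the end of the gene reached 8.04 (6.27 to 10.2), and the third, 688 bp beyond the gene, had 2.75 (1.69 to 4.27). The interval of the peak at the KRT8 start lay above those of all other peaks at KRT8 and KRT18.

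KRT19, a keratin without a tail domain, had 3 peaks, all low. A fold enrichment of 2.95 was found in an intron of the longer annotated form of KRT15, outside its canonical transcript, and one of 2.2 between KRT15 and KRT19. The third summit, of 2.43 (1.65 to 3.45), lay in an intron 524 bp downstream of the KRT19 start. Intervals of the 3 peaks overlapped, and each peak stood above at most 16.3% of all peaks. KRT20, a keratin of the intestinal epithelium, had no summit within 5 kb. The nearest summit, in KRT12, was 12751 bp away with a fold enrichment of 3.92. A gene without a peak is one at which none passed the q-value threshold of 0.05 at this depth, not one shown to lack cohesin.

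**Figure D1:**
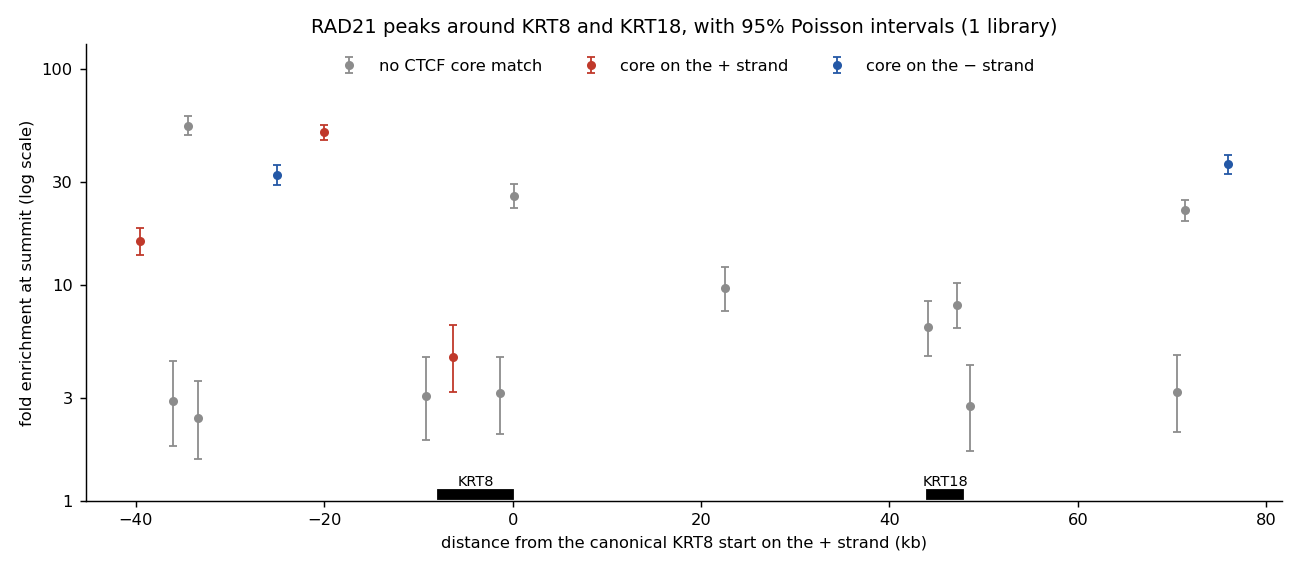
RAD21 peaks around KRT8 and KRT18. Points give the fold enrichment at each summit on a log axis against the distance from the canonical KRT8 start in kb, bars are 95% Poisson intervals of the fragments, colours give the strand of the CTCF core and black boxes are the canonical transcripts; the peak at the KRT8 start stands at 25.8, and 3 peaks above 30 lie outside the genes on the left.

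Summits at gene starts were found mainly in the simple epithelial group, a feature noticed after the values were seen. Within 1 kb of the canonical start a summit lay at 5 of 7 keratins of this group, namely KRT80, KRT7, KRT8, KRT18 and KRT19. Of the other 48 keratins, 2 had such a summit, KRT81 and KRT34. Among all protein-coding genes 34.1% had one. KRT80 was placed in the group although it is a keratin of many epithelia. Its summit lay 10 bp upstream of the start with a fold enrichment of 3.52 (2.31 to 5.17). That at KRT7, a keratin of ductal epithelia, lay 163 bp upstream with 4.20 (2.84 to 6.01). All 7 summits near starts lacked a core match, and their median fold enrichment was 3.52. The RefSeq promoter table (250 bases before to 50 after a start) matched 34 of the 55 keratins with 38 promoters. KRT80, KRT7, KRT81, KRT18 and KRT19 were not among the matched genes. For KRT8 the table gives only a start far upstream, with its promoter at chr12:52926420-52926719, near the summit of 9.65 at chr12:52927640. So of the genes with a summit near the canonical start, KRT34 alone was matched at such a start, and that none of the 38 promoters held a summit says nothing about the others. None of the 38 held a core match, beside 4.94% of all 35116 promoters of the table.

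The other keratins are described by the epithelium in which they are known to be expressed. The simple epithelial group as a whole had peaks at 5 of 7 genes (71.4%, Wilson interval 35.9 to 91.8%), beside 75.3% of all protein-coding genes. It had 21 distinct peaks. KRT80 had 6 peaks, of which the highest, 22.6 (19.8 to 25.7), lay 4906 bp beyond the gene at the cluster border. KRT7 had 4, the highest of them 6.52 in an exon of the pseudogene KRT87P, and KRT23 had none. All 3 basal keratins had peaks, KRT5 with 1 of 2.90, KRT14 with 2 of 6.71 and 3.77, and KRT15 with the 2 low ones shared with KRT19. The Wilson interval of this share, 43.9 to 100%, includes the 63.3% of short genes. These basal genes had no summit within 1 kb of their starts.

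Keratins of the differentiated layers of stratified epithelia had peaks at 4 of 13 genes. These were KRT77, KRT12 of the cornea, KRT13 of mucosal epithelia and KRT9 of palm and sole skin. KRT1, KRT2 and KRT10 of the upper epidermis had none, and neither had KRT3, KRT4, KRT24, KRT76, KRT78 and KRT79. The stress and wound keratins had a peak at 1 of 5 genes, KRT6B, where 1 summit of 7.83 (5.90 to 10.2) lay 3713 bp beyond the gene. KRT6A, KRT6C, KRT16 and KRT17 had none. The shares of both groups had Wilson intervals of 12.7 to 57.6% and 3.62 to 62.4%, beside the 63.3% of short genes. These intervals, like the others over genes, treat neighbouring genes as independent, which they are not. KRT76, KRT3, KRT4, KRT79 and KRT78 shared 1 stretch of 123924 bp without a summit. KRT6A and KRT6C shared another of 64415 bp, and KRT16 and KRT17 shared one of 56646 bp.

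Hair and nail keratins had peaks at 10 of 17 genes, and keratins of the hair follicle sheath at 6 of 9. The Wilson intervals of these shares, 36.01 to 78.4% and 35.4 to 87.9%, both include the 63.3% of short genes. KRT86 had 8 peaks, the highest of them 27.1 (23.4 to 31.3) in an intron without a core match. Its annotated span of 59864 bp contains KRT81, and the 3 peaks of KRT81 were among the 8. Another, of 6.52, lay in an exon of the pseudogene KRT87P and was also assigned to KRT7. KRT82, a keratin of the hair cuticle, had 4, of which 29.9 (25.9 to 34.2) in exon 7 and 20.3 (17.7 to 23.3) downstream of the gene both held a core match. Among the sheath keratins KRT72 had 2 peaks, 17.6 (15.1 to 20.5) downstream and 3.93 in an exon, and KRT73 had 2 of 3.04 and 2.62. KRT28 had 2, of which 36.2 (32.1 to 40.7) lay 3773 bp upstream of its start at an exact core match. The highest peak in any keratin window was that of 44 (39.2 to 49.2) between KRT36 and KRT13, also at an exact match. KRT222, a keratin-like gene at the end of the type I cluster, had no peak.

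The hair keratins KRT81 and KRT86 are near copies of each other. Of all 100-mers in the KRT81 window 15.0% had an exact copy elsewhere in the assembly, the largest share of any keratin, followed by 7.11% for KRT6C and 6.72% for KRT86. At 3 summits of KRT81 and KRT86, with fold enrichments of 3.92, 2.57 and 2.61, the 100-mer at the summit had a second copy, so these heights are uncertain. The part that read placement had in them was not tested.

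More of the peaks in keratin exons than of those in introns stood on a core match, though both sets are small. Of the 57 summits, 17 lay in a canonical keratin exon more than 1 kb from a start. A core match lay at 10 of these 17 and at 0 of 8 intronic summits, beside 38.5% of all peaks. The intronic peaks were lower, with a median fold enrichment of 3.10 against 6.59 in exons. The part that height had in the difference was not tested. Canonical exons of all keratins were then searched for the core, a step chosen after the values were seen. The exons of 25 keratins held 32 matches, and a summit lay within 50 bp of 10 of them (31.2%, Wilson interval 17.95 to 48.6%). In the exons of all protein-coding genes of chromosomes 12 and 17 this share was 15.2%, and over all 13332 matches on both chromosomes it was 16.8%. Of the 22 exon matches that pointed against the gene, 10 had a summit, and of the 10 that pointed along it, 0 had one, for which the Wilson interval reaches 27.8%. In the type II genes 8 of 16 matches had a summit, and in the type I genes 2 of 16. In KRT80, KRT81, KRT83, KRT85, KRT84, KRT82, KRT1 and KRT77 a match against the gene lay in exon 7. Matches at the same exon of related genes are not independent, and the intervals treat them as if they were.

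The exon matches with a summit were spread over 10 keratins. In the type II genes the fold enrichments were 6.59 (5.14 to 8.33) in KRT80, 3.92 (2.82 to 5.30) in KRT81 and 7.47 (5.67 to 9.66) in KRT86. They were 6.96 (5.15 to 9.20) in KRT85, 8.16 (6.38 to 10.3) in KRT84, 29.9 in KRT82, 7.54 (5.65 to 9.86) in KRT77 and 4.64 in KRT8. KRT82 thus stood above the others, whose intervals overlap in most pairs. In KRT1, KRT83, KRT72, KRT73, KRT74 and KRT3, type II genes whose exons also held a match, no summit lay within 50 bp of it. Without the summits that had a second copy over 100 bases, 9 exon matches instead of 10 kept a summit, the one lost being that of KRT81.

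In the type I genes a core match against the gene lay in exon 6 of KRT12, KRT14, KRT16, KRT17, KRT18 and KRT36. KRT12 had a summit within 50 bp of it, with a fold enrichment of 3.92 (2.67 to 5.58). The match in KRT36 was the only exact one in a keratin exon, and its summit had 6.95 (5.22 to 9.07). In KRT18 the summit of 8.04 lay 61.5 bp from the match and so just outside the limit of 50 bp.

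The type II cluster, from KRT80 to KRT18 (chr12:52168996-52952906), held 56 peaks in 783.9 kb. This was 71.4 peaks per Mb (95% Poisson interval 54.0 to 92.8), beside 19.6 per Mb of chromosome 12. The 200 kb before the cluster held 19 peaks, 95 per Mb, and the 200 kb after it 11, or 55.0 per Mb. Both flanks thus had densities whose Poisson intervals, 57.2 to 148 and 27.5 to 98.4, overlap that of the cluster. Peaks before the cluster were higher, with a median fold enrichment of 13.5 against 5.51 in the cluster and 5.36 after it.

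**Figure D2:**
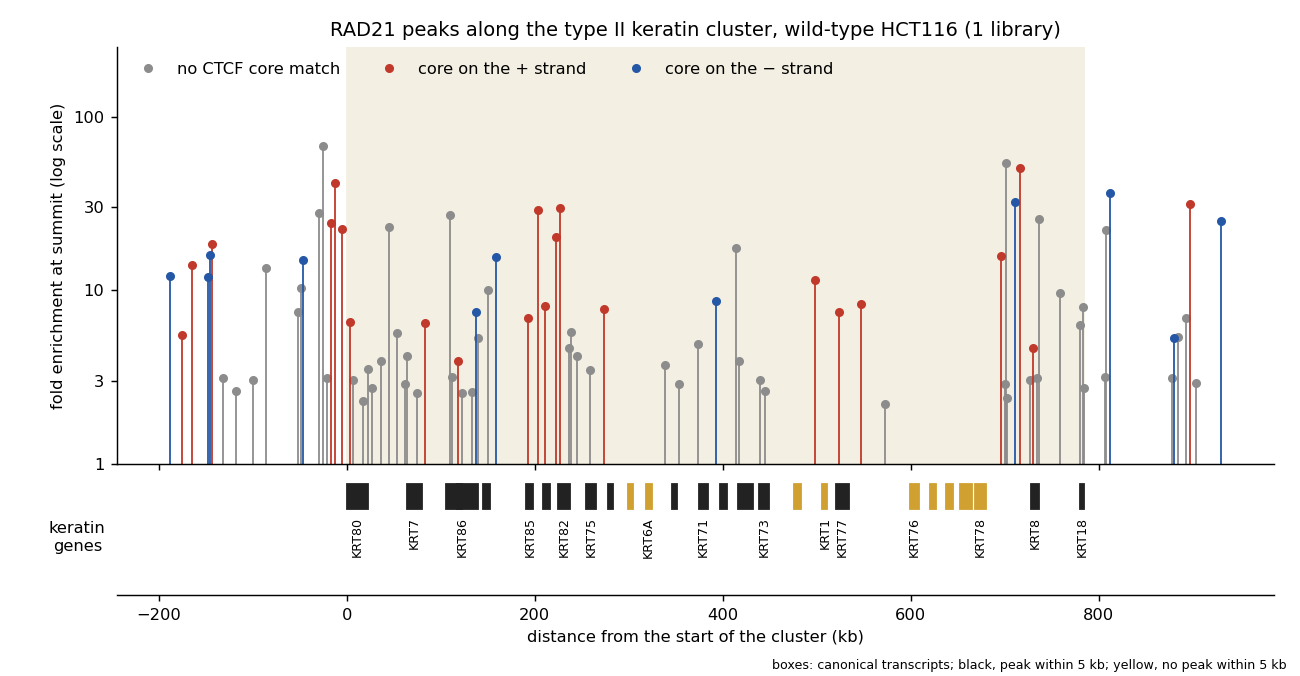
RAD21 peaks along the type II cluster and 200 kb on either side. Stems give the fold enrichment on a log axis against the distance from the start of the cluster in kb, colours the strand of the CTCF core, shading the cluster, and boxes the canonical keratin transcripts (black with a peak within 5 kb, yellow without); the longest stretch without a peak covers KRT76 to KRT78, between the peak of 2.22 and that of 15.9.

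Peaks were unevenly spread inside the type II cluster. The median distance between neighbouring summits was 8566 bp, against 28963 bp on the whole chromosome. The longest stretch without a summit, 123924 bp, held KRT76, KRT3, KRT4, KRT79 and KRT78, keratins of mucosal, corneal and differentiated epithelia, and a stretch of 64415 bp held KRT6B, KRT6C and KRT6A. Beyond the longer stretch, between KRT78 and KRT8, 6 peaks followed within 19492 bp, none of them in a keratin window. The highest peak of the cluster, 54.4 (49.1 to 60.1), was among them and had no core match. Its neighbours reached 32.2 (29.0 to 35.7) with a core on the minus strand and 50.6 (46.6 to 54.9) with a core on the plus strand. The 3 highest peaks of the cluster thus lay between KRT8 and KRT18 on one side and the other type II genes on the other.

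At the KRT80 end of the type II cluster the peaks nearest to the border had fold enrichments of 22.6 (19.8 to 25.7), 41.7 (38.0 to 45.6) and 24.5 (21.1 to 28.3), at 4906, 12033 and 16719 bp from the gene. All 3 had a core match on the plus strand, which points into the cluster, and that of the first was exact. A peak of 67.5 (61.6 to 73.9), without a match, lay 25289 bp out and was the highest of this flank. The nearest protein-coding gene, SMIM41, was 60741 bp away. At the other end, the summits after KRT18 were low at first, 2.75 and 3.19, and then 22.2 (19.8 to 24.7) at 23514 bp without a core match. The next, named after its value was seen, was 36.2 (32.7 to 40.02) at 28126 bp, with an exact core match on the minus strand that again points into the cluster. EIF4B, a translation initiation factor gene, followed 53376 bp after KRT18.

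Core matches in the type II cluster lay mostly on the plus strand. Of the 19 peaks with a match, 15 had it on the plus and 4 on the minus strand. In the 200 kb before the cluster the numbers were 6 and 4, and in the 200 kb after it 1 and 3. Among the 15 were the exon matches of KRT80, KRT81, KRT85, KRT84, KRT82, KRT77 and KRT8, which are genes of the minus strand.

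The type I cluster, from KRT222 to KRT17 (chr17:40654665-41624842), held 31 peaks in 970.2 kb, or 32.0 per Mb (21.7 to 45.4), beside 36.7 per Mb of chromosome 17. Its flanks of 200 kb had 7 peaks before KRT222 and 11 after KRT17, or 35.0 and 55.0 per Mb. Between KRT40 and KRT33A the cluster is split by 34 genes of keratin-associated proteins, which crosslink keratins in hair. The part from KRT222 to KRT40 had 7 peaks (21.1 per Mb), the stretch of keratin-associated protein genes 11 (30.6) and the part from KRT33A to KRT17 had 13 (46.6). The Poisson intervals of these 3 parts overlap, at 8.46 to 43.4, 15.3 to 54.8 and 24.8 to 79.8.

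**Figure D3:**
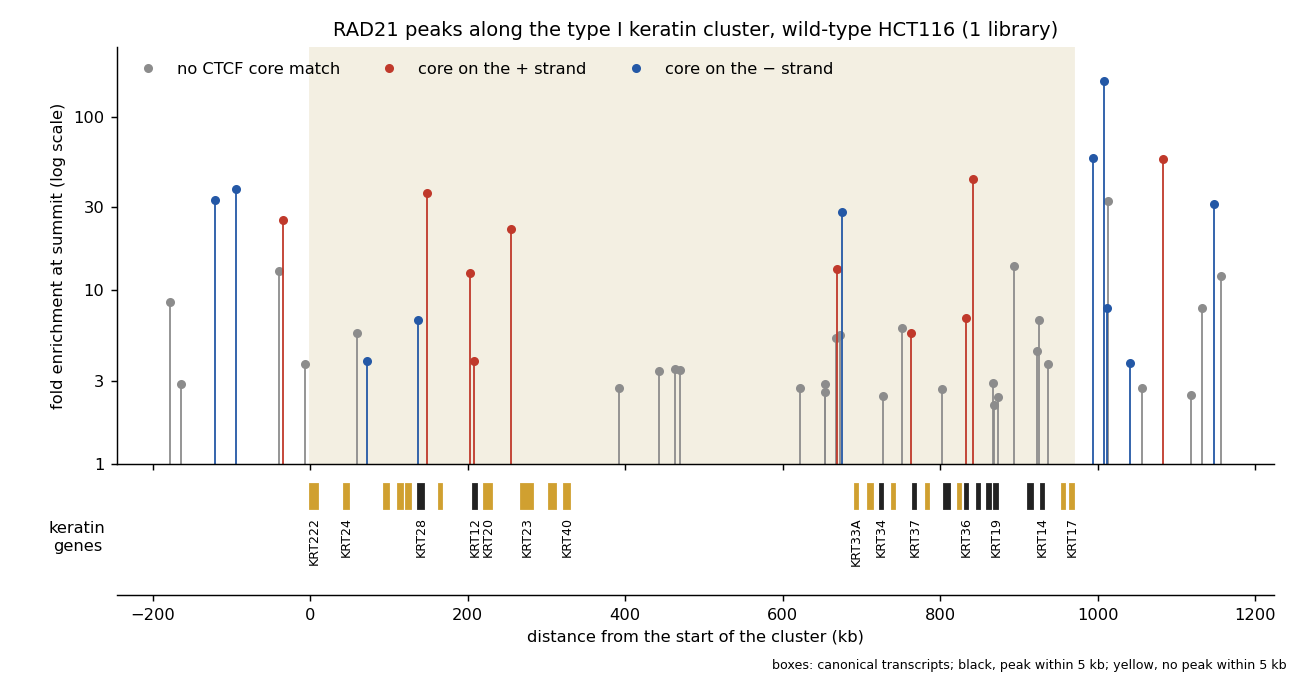
RAD21 peaks along the type I cluster and 200 kb on either side, drawn as for the type II cluster. Stems give the fold enrichment on a log axis against the distance from the start of the cluster in kb; the peak of 160.8 beyond KRT17 is the highest shown, and the keratin-associated protein genes lie between KRT40 and KRT33A, where no keratin boxes are drawn.

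Long stretches of the type I cluster had no peak. One of 152314 bp held 13 keratin-associated protein genes and no keratin, and it ended at 2 low summits of 3.48 and 2.75 in KRTAP4-12 and KRTAP9-7. Another of 137371 bp held KRT23, KRT39 and KRT40 with 7 keratin-associated protein genes, and ran from a peak of 22.6 (19.6 to 26.03), with a core on the plus strand, to one of 2.75. These stretches were longer than 98.3% and 97.4% of the distances between neighbouring summits on the chromosome. KRT25, KRT26 and KRT27 of the inner root sheath lay together in a further stretch of 64888 bp.

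At the KRT222 end of the type I cluster the nearest summit, 3.77 (2.55 to 5.39), lay 6839 bp out at the start of SMARCE1, a chromatin remodelling gene 6011 bp from KRT222. It was followed by 25.3 (21.9 to 29.1) at 34556 bp, with a core match on the plus strand, and 13.0 (11.3 to 14.8) at 38845 bp without one. KRT222 and KRT24 lay in a stretch of 66888 bp without a summit. At the KRT17 end no summit lay within 23234 bp of the gene, and KRT16 and KRT17 were both in a stretch of 56646 bp without one.

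The 2 highest peaks of the type I cluster and its flanks of 200 kb lay beyond KRT17. The nearest summit had a fold enrichment of 57.7 (52.4 to 63.3) at an exact core match. The second, 37997 bp from KRT17, reached 160.8 (152 to 170) from 1310 fragments and ranked 2 among all peaks of chromosomes 1 to 22, X and Y. The third had 7.97 (6.02 to 10.4) and stood 41198 bp out. All 3 had the core on the minus strand, pointing into the cluster. Farther out, a peak of 32.9 (29.1 to 37.0) without a core match stood at 42303 bp, and one of 56.6 (51.2 to 62.4) at 113329 bp had an exact core match on the plus strand. EIF1, another translation initiation factor gene, followed 64043 bp after KRT17.

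At each end of both clusters the nearest peak with a core match outside the genes had it on the strand that points into the cluster, plus before the first gene and minus beyond the last. After KRT18 this peak, of 36.2, lay beyond the nearest 3 summits, which had no match, and was named after its value was seen. Farther out both strands occurred, and before KRT222 peaks of 38.2 (34.3 to 42.5) and 33.1 (29.1 to 37.4) had the core on the minus strand. Inside the type I cluster 8 peaks had the core on the plus and 3 on the minus strand. In the 200 kb after it the numbers were 1 and 5, and in the 200 kb before it 1 and 2, so that the plus-strand peak of 25.3 was the only one of its kind on that side.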

How the data were processed

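RAD21 ChIP-seq of untreated wild-type HCT116 cells was analysed from the deposited peak list of 1 library. Per the submitters' processing notes, the tools were Trimmomatic 0.39, Bowtie2 2.5.3, Picard, deepTools 3.5.4 and MACS2 2.2.9.1, with GRCh38 as the genome. The authors called peaks against Input at a q-value threshold of 0.05, on this library alone. Which Input served the wild-type library is not given in the sources used here. The authors' list gives a score, the fold enrichment at the summit (a ratio to local background), the −log10 p-value and the −log10 q-value. The score was not used.

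The deposited p-value and fold enrichment of a peak together give its fragments and background, with a whole number of fragments (within 0.05) for all but 14 of 56853 peaks and for all peaks in the cluster regions. The lowest background was 5.90 fragments. The total depth is not in the list. Exact 95% Poisson intervals of the fragments were divided by the background to give fold intervals. They cover counting error only. The steps were tested on simulated data. Some sequences and the results that need them are not reported here.

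Of the sequence names in the list, 0 were missing from the reference, and 0 peaks passed a sequence end. Genes and exons were those of GENCODE version 44, with its canonical transcripts, and promoters were those of RefSeq. The CTCF core was searched with at most 1 mismatch within 50 bp of summits. Copies of 100-mers were exact matches in the assembly without alternate and patch sequences.

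The members, lists and rules were chosen with earlier results of these data known. The text names the 4 epithelial keratins, the outer 2 keratins and the next gene at each border, keratins with 2 or more peaks, genes at the 5 highest peaks, and those at the 2 longest stretches without a peak in each cluster. It also names keratins with at least 20% of 100-mers elsewhere, of which there were 0. The peaks named were all peaks of the 4 genes, the 5 highest at keratins, the highest of each cluster and the nearest 3 beyond each border. Others were added after their values were seen. No test was made, as there was 1 library. Other settings were tried for the results (70), and 4 more were added after the data were seen. The computations used matplotlib 3.10.9, numba 0.67.0, scipy 1.17.1, pandas 2.3.3 and numpy 2.4.6 in Python 3.11.15.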

Additional observations from a re-analysis of the deposited data

How the results depend on the processing

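Of 70 other settings, 62 left the value within the spread or within 1.5 times the count, and 8 moved it. With summits inside the gene body only, 19 keratins had a peak, 34 peaks were counted, and with a shared peak counted once for each gene there were 2.00 peaks per gene instead of 3.5 at KRT8, KRT18, KRT19 and KRT20 and 0.57 instead of 1.04 at the others. These counts are smaller because the window is. At a q-value of at most 1e-05, these 4 genes had 1.75 peaks per gene instead of 3.5, the median fold enrichment at keratins was 6.76 and the share with a core match was 51.3%, since the lower peaks are left out. With an exact core match the share was 7.02%. The settings added after the data were seen gave 27 keratins of at most 25 kb with a peak, and 11, 10 and 9 exon core matches at a peak, within 100 bp, at a q-value of at most 1e-05 and without summits that have a second copy. No paired analysis was possible because there was 1 library and no test. The cause of the changes was not tested further. Low peaks of 15 to 30 fragments have wide intervals, and a gene without a peak may hold cohesin below this depth.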

Other observations

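Keratin pseudogenes lie in both clusters, and 6 of the 13 annotated ones had a summit within 5 kb, beside 63.3% of protein-coding genes of at most 25 kb. In KRT87P (fold enrichment 6.52, interval 4.78 to 8.71) and KRT126P (8.37, 6.45 to 10.7) the summit lay in an exon, with a core match on the plus strand. Both summits were unique over 100 bases. KRT90P also had a summit in an exon (4.20, 2.84 to 6.01), without a core match. Some peaks near pseudogenes were already counted at keratins. The KRT87P summit was assigned to KRT7 and KRT86, one of 5.80 near KRT90P to KRT82, and one of 2.70 near KRT43P to KRT32.

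Of the 34 keratin-associated protein genes, 7 had a summit within 5 kb (20.6%, Wilson interval 10.3 to 36.8%), beside the same 63.3%. These genes are very short, and per megabase of window they had 25.6 peaks (95% Poisson interval 10.3 to 52.7) beside 51.8 at short genes. All 7 peaks were low, with fold enrichments of 2.61 to 3.53, and all lay inside the single exon of KRTAP2-1, KRTAP4-8, KRTAP4-11, KRTAP4-12, KRTAP9-7 or KRTAP16-1, within 1 kb of its start. None had a core match. At the KRTAP2-1 summit the 100-mer had 2 copies, so this peak is uncertain.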
